A study of Mus musculus with 8 samples.

Results

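Imprinted genes are read from the copy inherited from one parent and kept silent on the other. A list of 45 autosomal genes known to be imprinted in the mouse, chosen by name and matched by symbol to 45 of the 46078 gene IDs of the count data, was followed through allele-specific RNA-seq of female mouse embryonic fibroblasts (MEFs). The list holds 23 genes of the paternally expressed class, 19 of the maternally expressed class and 3 (Gnas, Ddc and Zfat) whose parental expression depends on the isoform or is uncertain. The cells were clonal lines from a cross of a 129 strain with CAST/EiJ (labelled 129S1/SvImJ x CAST/EiJ), so that each RNA read over a strain difference could be assigned to the 129 or the CAST chromosome. WT cells carry the X chromosome of 129 origin as the inactive X (Xi). In XiΔXist cells that X carries a deletion of Xist, whose RNA covers the Xi and silences it. XiΔXist shSCR cells are XiΔXist cells transduced with a lentivirus carrying a scrambled hairpin, and XiΔXist shYY1 cells carry hairpins against the transcription factor YY1 (shYY1-1 and shYY1-2). Both hairpin groups were selected in puromycin. Each group had 2 samples, and the sources used here do not state which strain was the mother. The line of a genotype and its Xist deletion cannot be told apart in these data, since each clonal genotype is a cell line of its own.

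An imprint is laid down in the germ line as DNA methylation at CpG-rich control regions, on the egg or the sperm chromosome, and it is kept through cell division by DNMT1 with UHRF1 and by KRAB zinc finger proteins that recruit TRIM28 and SETDB1. The imprinted genes sit in clusters, in which paternally and maternally expressed genes lie side by side, often with a long noncoding RNA that silences its neighbours on the same chromosome. Many of them act on growth of the embryo and placenta, such as the growth-limiting adaptor Grb10 and the cell cycle inhibitor Cdkn1c, and several are switched off outside the embryo.

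The deposited counts hold the 2 samples of a group in 1 pool, so that each value below is that of a pool and no spread between samples could be computed. Reads assigned to an allele numbered 24310035 for the WT pool and 28329701 for the XiΔXist pool, but 2393545 for shSCR and 2504345 for shYY1. A share is the percent of a gene's allelic reads that came from the 129 allele, with its Wilson 95% interval, and a level is the sum of both alleles in CPM, scaled to the allelic reads of the pool. Intervals cover counting error only, since copies made by PCR are not independent molecules. Xist stood at 1456 CPM in WT and 0.741 CPM in XiΔXist, with no read in shSCR and 6 in shYY1. Yy1 fell from 99.0 CPM in shSCR to 36.7 CPM in shYY1. Of 10 fibroblast markers, 9 or 10 had reads in each pool (S100a4 had none in WT), with a summed level of 3895 to 9427 CPM. The 7 markers of other cells summed to 0.399 to 4.40 CPM, with Pou5f1 and Nanog at 0 in every pool. In bulk RNA, fewer cells expressing a gene and less RNA per cell cannot be told apart.

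A share of 100% says little where the chromosome shows no CAST reads at all, and 42.8% of the 12344 other autosomal genes with at least 10 reads in WT had a 129 share of at least 90%. The genes within 2 Mb on either side of each imprinted gene were therefore read first. Overlapping genes, genes under 10 allelic reads and a list of other imprinted genes were left out. Surroundings were called heterozygous when at least 50% of 3 or more neighbours had a share between 10% and 90%, of one allele when under 20% did, and mixed in between. An imprinted gene was called read from one allele at a share of at most 10% or at least 90%.

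The minimum of 10 allelic reads was reached by 29 of the 45 genes for WT, by 24 for XiΔXist, and by 23 and 22 for shSCR and shYY1. In all, 30 genes reached 10 reads in at least 1 pool. The other 15 (Ascl2, Calcr, Ddc, Gnas, Kcnk9, Magel2, Mest, Ndn, Nespas, Phlda2, Rasgrf1, Slc22a18, Snurf, Zdbf2 and Zim1) did not, and 7 of these (Ascl2, Calcr, Kcnk9, Magel2, Phlda2, Slc22a18 and Snurf) had no allelic read in any pool. Mest, a paternally expressed hydrolase gene, had 8, 5, 8 and 7 reads in WT, XiΔXist, shSCR and shYY1. Ndn, a paternally expressed regulator of cell growth, had 4 reads in shSCR and 5 in shYY1, all from CAST. Only reads over a strain difference were counted, so a low count is no measure of low expression.

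In WT, 13 of the 29 genes lay in heterozygous surroundings, against 54.7% of the 12344 other autosomal genes. Of these 13, 8 were read from one allele. Among the 6748 other autosomal genes in heterozygous surroundings in WT, 9.01% were read from one allele, 3.13% from CAST and 5.88% from 129. Of the 8, the 6 read from CAST (Impact, Mkrn3, Nnat, Peg10, Peg12 and Sgce) all belong to the paternally expressed class. The 2 read from 129 (Asb4 and Grb10) both belong to the maternally expressed class. The remaining 5 (Blcap, Commd1, Copg2, Ppp1r9a and Zrsr1) had reads of both alleles. In XiΔXist, 10 genes lay in heterozygous surroundings (54.7% of the other genes) and 5 of them were read from one allele, Impact, Mkrn3, Peg10, Peg12 and Sgce, all from CAST. Among the other genes in such surroundings 8.74% were, 3.00% from CAST and 5.74% from 129. In shSCR 8 genes lay in heterozygous surroundings (52.5% of the other genes) and in shYY1 7 (52.2%), and Impact, Peg10, Peg12 and Sgce were read from CAST alone in both pools. Among the other genes 7.77% were read from one allele in shSCR, 2.46% from CAST and 5.32% from 129, and 7.90% in shYY1, 2.58% from CAST and 5.31% from 129. A 129 share of at least 90% was found for 42.7%, 42.7% and 43.3% of all other autosomal genes in XiΔXist, shSCR and shYY1, wherever they lay.

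**Figure D1:**
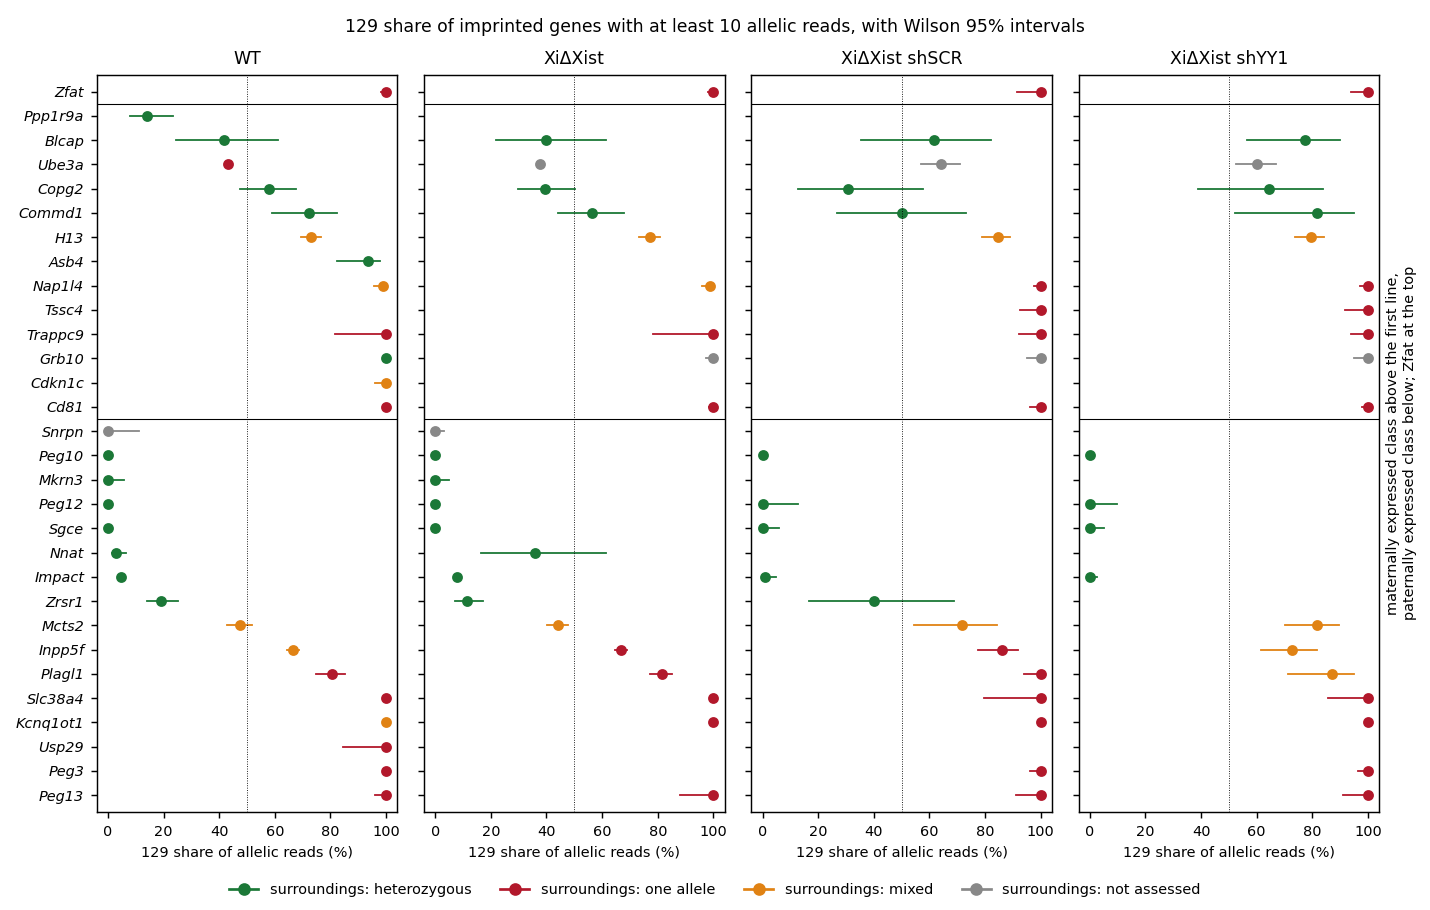
The 129 share in percent (x axis) of the 30 imprinted genes with at least 10 allelic reads in a pool, 1 panel a pool, with Wilson 95% intervals as bars and the colour giving the surroundings. The horizontal lines divide the rows by class, with the paternally expressed class at the bottom, the maternally expressed class above it and Zfat at the top, and the dotted vertical line marks 50%. In heterozygous surroundings (green) Peg10, Peg12, Sgce and Impact sit below 10% in all 4 panels, whereas the points at or near 100% are mostly red, in surroundings of one allele.

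The clearest pair was Peg10 and Sgce on chromosome 6, divergent neighbours whose starts lie close together. Peg10 (ENSMUSG00000092035, chr6:4747306-4760517 in GRCm38, plus strand) is a gene derived from a retrotransposon and needed for the placenta. It had 1762 reads in WT, 1216 in XiΔXist and 464 and 639 in the shSCR and shYY1 pools, every one from CAST. With no 129 read, a 129 share of up to 0.170% in WT and 0.470% in shYY1 is still allowed by 3 reads. Sgce (ENSMUSG00000004631, chr6:4674350-4747207, minus strand), which encodes epsilon-sarcoglycan of the muscle membrane complex, had 2 reads from 129 against 1331 from CAST in WT, a share of 0.150% (0.0412% to 0.545%). It had 994, 63 and 73 reads in XiΔXist, shSCR and shYY1, all from CAST. Around the pair, 12 of 13 neighbours in WT had a share between 10% and 90%, among them the collagen gene Col1a2 at 53.2% of 39853 reads and Bet1 at 49.3% of 6251 reads. Both genes were thus read from CAST in a stretch where both chromosomes were read.

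Further along the same cluster, 2 genes of the maternally expressed class behaved differently from each other in WT. Asb4, an ankyrin repeat gene of a ubiquitin ligase, had 43 reads from 129 and 3 from CAST, a share of 93.5% (82.5% to 97.8%). Ppp1r9a, which encodes the actin-binding protein neurabin, had 11 reads from 129 and 67 from CAST, a share of 14.1% (8.06% to 23.5%), the side opposite to Asb4. Neither could be read on in the other pools, where Asb4 had 8 reads in XiΔXist (2 from 129) and Ppp1r9a had 7 (1 from 129), and both had 0 in shSCR and shYY1.

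On chromosome 7, Peg12 and Mkrn3 of the Prader-Willi cluster were read from CAST. Peg12 (ENSMUSG00000070526, chr7:62461871-62464510) encodes a relative of the Wnt regulator Frat. It had 1 read from 129 and 731 from CAST in WT, a share of 0.137% (0.0241% to 0.770%), and 704, 26 and 36 reads in XiΔXist, shSCR and shYY1 without a 129 read. Mkrn3 (ENSMUSG00000070527, chr7:62417593-62420139), a RING finger gene that restrains the onset of puberty, had 61 reads in WT and 75 in XiΔXist, all from CAST, and 2 and 3 in shSCR and shYY1. Of 7 neighbours within 2 Mb in WT, 5 had a share between 10% and 90%, including Mtmr10 at 49.8% of 7561 reads. The heterozygous neighbours lay on 1 side, the nearest (Klf13) at 1.42 Mb from Peg12, and within 1 Mb no call could be made for either gene. Since methylation of CpG dinucleotides carries the imprint, the promoters of 4 genes read from one allele are shown here, from 250 bases before to 50 bases after the RefSeq start (GRCm38.p6, 5′ to 3′ in the direction of transcription), with each CpG in capitals.
Peg12, chr7:62464461-62464760, minus strand: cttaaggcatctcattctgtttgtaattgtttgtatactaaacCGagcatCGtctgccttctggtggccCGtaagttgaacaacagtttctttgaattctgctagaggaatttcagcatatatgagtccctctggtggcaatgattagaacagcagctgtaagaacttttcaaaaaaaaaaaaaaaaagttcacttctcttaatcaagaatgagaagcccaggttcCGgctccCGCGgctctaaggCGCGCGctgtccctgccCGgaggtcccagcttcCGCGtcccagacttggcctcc
Mkrn3, chr7:62420104-62420403, minus strand: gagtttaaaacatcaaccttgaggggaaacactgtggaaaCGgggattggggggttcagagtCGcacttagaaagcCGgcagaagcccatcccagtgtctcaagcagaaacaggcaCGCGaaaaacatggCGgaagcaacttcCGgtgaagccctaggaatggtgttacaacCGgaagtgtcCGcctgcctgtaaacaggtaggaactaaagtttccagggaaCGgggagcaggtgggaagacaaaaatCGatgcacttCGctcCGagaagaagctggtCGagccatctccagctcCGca
Nnat, chr2:157559828-157560127, plus strand: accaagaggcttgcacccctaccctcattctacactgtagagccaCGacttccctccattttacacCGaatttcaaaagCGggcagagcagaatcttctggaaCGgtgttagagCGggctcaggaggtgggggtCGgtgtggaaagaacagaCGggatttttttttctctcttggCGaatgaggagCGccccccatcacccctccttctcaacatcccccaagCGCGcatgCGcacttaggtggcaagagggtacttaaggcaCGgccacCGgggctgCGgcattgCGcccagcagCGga
Grb10, chr11:12037371-12037670, minus strand: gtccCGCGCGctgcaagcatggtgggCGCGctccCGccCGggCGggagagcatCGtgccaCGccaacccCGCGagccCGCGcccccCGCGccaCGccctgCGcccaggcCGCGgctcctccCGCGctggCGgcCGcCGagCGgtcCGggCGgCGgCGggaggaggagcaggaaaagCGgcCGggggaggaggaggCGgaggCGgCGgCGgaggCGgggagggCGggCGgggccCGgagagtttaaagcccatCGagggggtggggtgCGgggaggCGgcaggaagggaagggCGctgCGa

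These windows held 12 CpG in Peg12, 15 in Mkrn3, 17 in Nnat and 45 in Grb10, and a further Grb10 start held 9. The median over all 32851 promoter windows of the table was 7, and that over the 52 windows of the 35 imprinted genes found in it was 15.5. Peg10, Sgce, Impact, Cdkn1c, Kcnk9, Nap1l4, Nespas, Peg13, Trappc9 and Zfat had no window. Methylation itself was not measured here.

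Snrpn, a splicing gene of the same cluster, had 31 reads in WT and 123 in XiΔXist, all from CAST, and 3 and 6 in the hairpin pools. Only 1 or 2 neighbours were read within 2 Mb, so its surroundings were not assessed, and its exons overlap those of Snurf and Gm38393. Snhg14, an RNA of this cluster that was not left out, was among these neighbours. Within 5 Mb the surroundings of Snrpn, Snhg14 included, were heterozygous in WT and XiΔXist. Snrpn was then counted as read from one allele. Ube3a, the ubiquitin ligase gene whose loss causes Angelman syndrome and which is maternally expressed in neurons, was read from both alleles in every pool. None of its 4 neighbours in WT lay between 10% and 90%. Of these, Gm38393, a transcript of this cluster that was not left out, had 512 reads and the others at most 20. The share of Ube3a was 43.2% (42.2% to 44.2%) of 9606 reads in WT and 37.8% (36.8% to 38.8%) of 9555 reads in XiΔXist. It was 64.3% of 171 reads in shSCR and 60.0% of 170 in shYY1. Its exons overlap the antisense RNA Snhg14, and whether the counting used strand is not stated, so reads of the pair cannot be told apart in the overlap.

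Impact on chromosome 18, a regulator of the translation factor kinase GCN2, had the largest number of reads from the lesser allele among the genes called. It had 204 reads from 129 and 4181 from CAST in WT, a share of 4.65% (4.07% to 5.32%), and 494 and 5815 in XiΔXist, a share of 7.83% (7.19% to 8.52%). In shSCR 1 of 115 reads and in shYY1 0 of 146 reads came from 129. In WT 15 of its 16 neighbours lay between 10% and 90%, with Riok3 at 57.6% of 6581 reads. Reads of the 129 allele were thus counted for Impact in both deep pools, at a higher share in XiΔXist than in WT. Another annotated gene, Gm26407, overlaps the span of Impact, though its exons do not overlap those of Impact.

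Nnat, a paternally expressed gene of the endoplasmic reticulum known from the brain, lies inside an intron of Blcap on chromosome 2. In WT it had 6 reads from 129 and 194 from CAST, a share of 3.00% (1.38% to 6.39%). In XiΔXist only 14 reads were left, 5 from 129 and 9 from CAST, and the hairpin pools had 0 and 1 read. Blcap itself, a gene linked to cell death that is maternally expressed in brain, was read from both alleles in every pool, with 10 and 14 reads from 129 and CAST in WT, 8 and 12 in XiΔXist, 8 and 5 in shSCR and 17 and 5 in shYY1. Of 46 neighbours in WT, 43 lay between 10% and 90%.

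On chromosome 11, Zrsr1, a retrogene copy of the X-linked splicing gene Zrsr2, lies inside Commd1. Zrsr1, of the paternally expressed class, had 35 reads from 129 and 150 from CAST in WT, a share of 18.9% (13.9% to 25.2%), and 18 and 142 in XiΔXist, a share of 11.2% (7.24% to 17.1%). It had 4 and 6 in shSCR and 2 and 2 in shYY1. Commd1, a regulator of copper and NF-kB that is of the maternally expressed class, leaned the other way in WT, with 39 reads from 129 and 15 from CAST, a share of 72.2% (59.1% to 82.4%). It had 36 and 28 in XiΔXist, 7 and 7 in shSCR and 9 and 2 in shYY1. The intervals of the pair did not overlap in WT, and neither gene passed the limits for reading from one allele. Their annotated exons overlap, so reads there could not be given to either gene with certainty.

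Copg2, a coat protein gene of the maternally expressed class next to Mest on chromosome 6, had 52 reads from 129 and 38 from CAST in WT, a share of 57.8% (47.5% to 67.5%), 34 and 52 in XiΔXist, 4 and 9 in shSCR and 9 and 5 in shYY1. Of its 35 neighbours in WT, 33 lay between 10% and 90%, so it was read from both alleles among genes that were too.

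Grb10 (ENSMUSG00000020176, chr11:11930508-12038683, minus strand), an adaptor that limits insulin and growth factor signalling, was the gene of the maternally expressed class with the most reads among those in heterozygous surroundings. It had 1031 reads in WT, 148 in XiΔXist and 72 and 72 in the shSCR and shYY1 pools, all from 129. In WT its 4 neighbours had a median share of 46.7%, and Fignl1, at 0.122 Mb, had a share of 53.4% of 9294 reads. In the other pools 1 neighbour was left, at a share of 47.7%, 31.2% and 41.5%, so the surroundings were not assessed there, and within 5 Mb they were heterozygous in all 4 pools. The absence of CAST reads still allows a CAST share of up to 0.291% in WT and 4.17% in each hairpin pool.

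**Figure D2:**
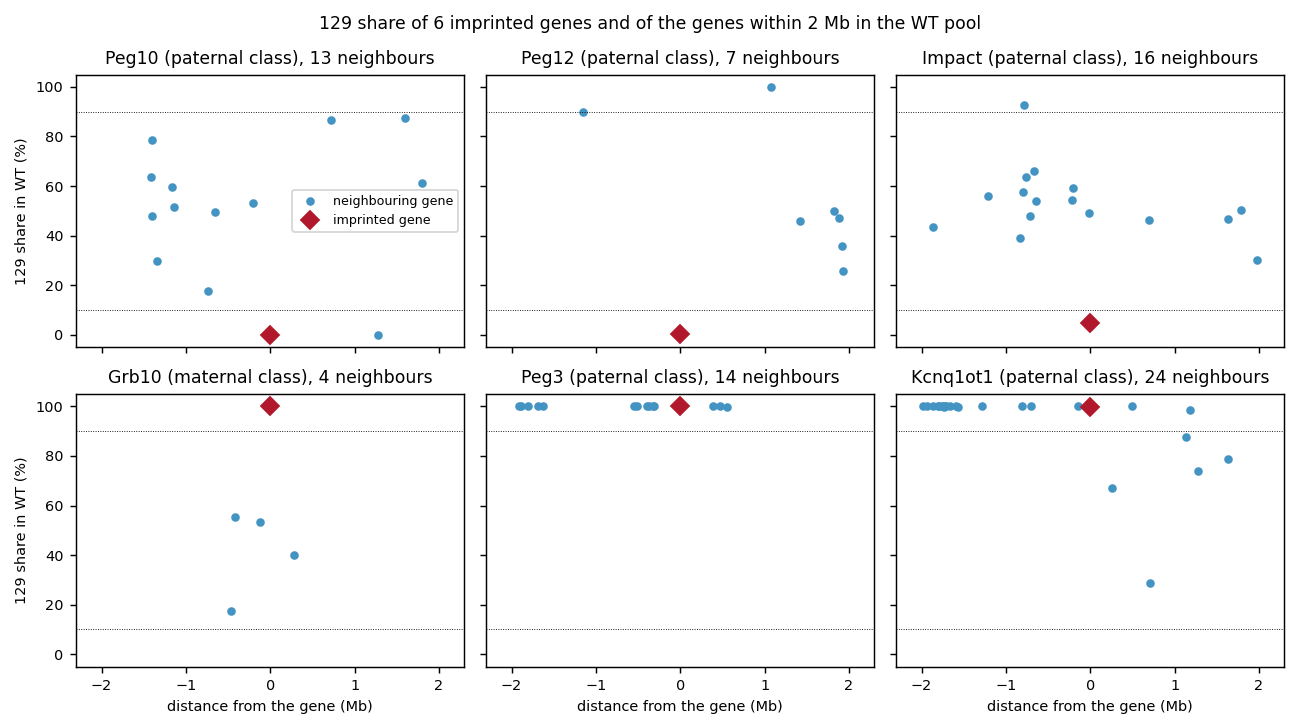
The 129 share in WT (y axis, percent) of 6 imprinted genes (red diamonds at 0) and of the genes within 2 Mb with at least 10 allelic reads (blue points), by distance from the gene in Mb, with dotted lines at 10% and 90%. Around Peg10, Impact and Grb10 the neighbours spread about the middle while the imprinted gene lies at an edge, around Peg12 the heterozygous genes lie on 1 side, and all 14 neighbours of Peg3 and most of the 24 of Kcnq1ot1 lie near 100% with it.

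The other genes read from one allele lay in stretches where the neighbours too gave 129 reads only or mostly. There the share does not tell an imprint from the absence of CAST reads over the whole stretch. Peg3 (chr7:6703892-6730431), a paternally expressed zinc finger gene of maternal behaviour and growth, had 1744 reads in WT, 4 in XiΔXist and 98 and 100 in the shSCR and shYY1 pools, all from 129. None of its 14 neighbours in WT lay between 10% and 90%, Clcn4 having a share of 99.8% of 2961 reads, and the nearest gene read from both alleles was 5.87 Mb away. Usp29, the deubiquitinase gene that shares a promoter region with Peg3, had 21 reads in WT, all from 129, and none in the other pools.

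The same held on chromosome 15. Slc38a4, an amino acid transporter gene that is paternally expressed, had 17007 reads from 129 and 11 from CAST in WT and 608, 15 and 23 reads from 129 alone in XiΔXist, shSCR and shYY1. None of its 33 neighbours in WT lay between 10% and 90%. Peg13, a noncoding RNA of the paternally expressed class, and Trappc9, a trafficking gene of the maternally expressed class that contains it, were both read from 129 alone, Peg13 with 97, 28, 40 and 39 reads and Trappc9 with 17, 14, 46 and 59. Zfat, a zinc finger gene, had 210, 188, 42 and 59 reads, all from 129. Genes of opposite class therefore had the same share here.

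In the Kcnq1 cluster at the end of chromosome 7, opposite classes likewise shared an allele. Kcnq1ot1 (chr7:143203458-143296549), the long noncoding RNA of the paternal chromosome that silences the cluster, had 23361 reads from 129 and 11 from CAST in WT, 14444 and 6 in XiΔXist, and 1128 and 1117 reads from 129 alone in shSCR and shYY1. Its exons overlap those of Kcnq1, from which it is read in the antisense direction. Of the genes of the maternally expressed class, Cd81, a tetraspanin gene, had 390, 259, 94 and 166 reads and no CAST read. Nap1l4, a histone chaperone gene, had 2 CAST reads of 168 in WT and 2 of 168 in XiΔXist, and none of 146 and 139 in the hairpin pools. Tssc4, a splicing factor gene, reached 10 reads in the hairpin pools alone, with 49 and 42, and Cdkn1c, the growth-limiting cell cycle inhibitor, had 90 reads in WT, all from 129. Of 24 neighbours of Kcnq1ot1 in WT, 5 lay between 10% and 90%, the nearest being Cars at 0.261 Mb with a share of 67.3%. Within 1 Mb the surroundings of Cdkn1c and Nap1l4 in WT were heterozygous by the same rule, so for these genes the call depends on the width of the window.

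Besides Ube3a, a group of 4 genes had reads from both alleles although most of their neighbours within 2 Mb in WT did not. The class changed with the window, since in WT the surroundings of Inpp5f were heterozygous within 1 Mb and those of Ube3a, H13 and Mcts2 within 5 Mb. Plagl1, a paternally expressed zinc finger regulator of growth genes, had 182 reads from 129 and 44 from CAST in WT, a share of 80.5% (74.9% to 85.2%), 289 and 66 in XiΔXist, 59 and 0 in shSCR and 27 and 4 in shYY1. Only 1 of its 17 neighbours in WT lay between 10% and 90%, and Utrn had a share of 99.9% of 9443 reads. Inpp5f, a phosphatase gene with a paternally expressed form in brain, had 1219 and 616 in WT, a share of 66.4% (64.2% to 68.6%), 1241 and 614 in XiΔXist, 75 and 12 in shSCR and 53 and 20 in shYY1, with 10 of 42 neighbours between the limits in WT. The CAST share of Plagl1 was 19.5% in WT, 18.6% in XiΔXist and 12.9% in shYY1, and that of Inpp5f was 33.6%, 33.1% and 27.4%, with the intervals of shYY1 overlapping those of WT for both genes. The shSCR pool was lower, with 0 of 59 reads of Plagl1 and 12 of 87 reads of Inpp5f from CAST.

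The other two lie together on chromosome 2, where Mcts2, a retrogene of the paternally expressed class, sits in an intron of H13, a signal peptide peptidase gene of the maternally expressed class. H13 had 400 reads from 129 and 147 from CAST in WT, a share of 73.1% (69.3% to 76.7%), and 77.1%, 84.5% and 79.5% in the other pools. Mcts2 had 211 and 235 in WT, a share of 47.3% (42.7% to 51.9%), 290 and 368 in XiΔXist, 23 and 9 in shSCR and 49 and 11 in shYY1. The intervals of the pair did not overlap in WT, Mcts2 having more of its reads from CAST. The X-linked source gene Mcts1, which matches Mcts2 at 84.0% of 674 bases, had 970 reads in WT, none from 129. Its level was 39.9, 50.5, 4.60 and 3.59 CPM in WT, XiΔXist, shSCR and shYY1, and the CAST share of Mcts2 was 52.7%, 55.9%, 28.1% and 18.3% in the same order. The part of Mcts1 reads in the Mcts2 share was not tested.

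XiΔXist was compared with WT to ask whether loss of Xist, which acts on the X chromosome, went with other allelic use of autosomal imprinted genes. Of 24 imprinted genes with 10 reads in both pools, 1 changed its share by at least 10 points with an adjusted p under 0.05 (Fisher's exact test of the read counts, two-sided, with Benjamini-Hochberg adjustment over 11909 genes). By the same rule 11.2% of the other autosomal genes changed, 4.15% to a higher and 7.07% to a lower 129 share, and 19.9% of those in heterozygous surroundings in both pools. Of the 24 imprinted genes, 10 lay in such surroundings. The test compares 2 pools of libraries, not the conditions. The gene was Nnat, which went from 3.00% of 200 reads to 35.7% of 14 reads (16.3% to 61.2%, adjusted p = 0.00163 by Fisher's exact test), and it could not be tested with a minimum of 20 reads. By the same exact test, the 129 share of Impact was 3.18 points higher (adjusted p = 5.47e-10) and that of Ube3a differed by -5.38 points (adjusted p = 7.15e-13), both under the 10 points set for a call. Copg2 differed by -18.2 points with an adjusted p = 0.0800 in Fisher's exact test, so it was not called. Peg10, Sgce, Peg12 and Mkrn3 moved by less than 1 point.

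Total levels of both alleles were compared in the same pools. Of 26 imprinted genes with at least 50 reads in the 2 pools together, 1 was at least 2-fold higher in XiΔXist on the scale of log2(CPM + 1) and 8 were at least 2-fold lower, against 3.07% and 6.03% of the 10289 other autosomal genes. The median log2 difference was -0.37 over the 26 and -0.11 over the others. A gene low in one pool enters through its reads in the other, and with 1 pool a group there is no test of these differences. Peg3 had 71.7 CPM in WT and 0.141 CPM in XiΔXist, a ratio of 508 on the CPM scale (95% counting interval 198 to 1867). Slc38a4 had 700.04 and 21.5 CPM, 32.6-fold lower in XiΔXist (30.1 to 35.4). Grb10 had 42.4 and 5.22 CPM, 8.12-fold lower (6.83 to 9.71), with no CAST read in either pool.

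The other 5 genes that fell had fewer reads. Nnat had 8.23 and 0.494 CPM, 16.6-fold lower (9.69 to 31.0). Ppp1r9a was 12.99-fold lower (6.01 to 33.4), Asb4 6.70-fold lower (3.13 to 16.4) and Peg13 4.04-fold lower (2.63 to 6.39). Cdkn1c had 90 reads in WT and none in XiΔXist, at least 35.0-fold lower taking 3 reads of the pool as the floor, with the counting interval starting at 27.9-fold. Snrpn was the gene that was higher, with 1.28 and 4.34 CPM, a ratio of 3.40 (2.28 to 5.23). Among the genes read from CAST, Peg10 had 72.5 and 42.9 CPM and Sgce 54.8 and 35.1 CPM, ratios of 0.592 (0.550 to 0.637) and 0.640 (0.589 to 0.695), under the 2-fold limit. The fallen genes lay on chromosomes 2, 6, 7, 11 and 15 and belonged to both parental classes.

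Knockdown of YY1 was compared with the scrambled hairpin within XiΔXist cells, YY1 being a factor with binding sites in several imprinting control regions, that of Peg3 among them. None of 22 imprinted genes changed its share by the rule, against 1.11% of the other autosomal genes (0.598% higher and 0.516% lower) and 2.02% of those in heterozygous surroundings. With Fisher's exact test, 2 genes had an unadjusted p under 0.05. The share of Plagl1 differed by -12.9 points in shYY1 (adjusted p = 0.247) and that of Inpp5f by -13.6 points (adjusted p = 0.473) in this exact test. None of 18 imprinted genes with enough reads was 2-fold higher or lower, against 1.11% and 1.33% of the others, and the median log2 difference was 0.02, against -0.08 over the other genes. Peg3 had 40.9 CPM in shSCR and 39.9 CPM in shYY1, a ratio of 0.975 (0.731 to 1.30). Peg10 had 193.9 and 255.2 CPM, a ratio of 1.32 (1.17 to 1.49), and Cd81 39.3 and 66.3 CPM, a ratio of 1.69 (1.30 to 2.20). Mcts2 had a ratio of 1.79 (1.15 to 2.84) and Plagl1 one of 0.502 (0.314 to 0.788), and each of these intervals leaves out 1 while none reaches the 2-fold limit by its estimate on the log2(CPM + 1) scale. At this depth a change of 2-fold lies inside the interval of several genes, such as Peg12 at 1.32 (0.777 to 2.28).

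The core of the YY1 motif, GCCATNTT or its reverse complement AANATGGC, was in 6.05% of all promoter windows and in 3 of the 52 windows of the imprinted genes, or 5.77%. They were the windows of Ube3a and Mkrn3 and 1 of 3 starts of Slc38a4. Ube3a had 71.4 CPM in shSCR and 67.9 CPM in shYY1, a ratio of 0.9502 (0.764 to 1.18), while Mkrn3 and Slc38a4 had too few reads to be compared. A match in these letters is a description and not a binding site.

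The scrambled hairpin pool was set against the XiΔXist pool because both are labelled as XiΔXist cells. Of 21 imprinted genes, 4 changed their share (Inpp5f, Mcts2, Plagl1 and Ube3a), each with a higher 129 share in shSCR, against 18.9% of the other autosomal genes, 9.86% to a higher and 9.07% to a lower share, and 26.2% of those in heterozygous surroundings in both pools. Of the 21, 8 lay in heterozygous surroundings in both pools, and none of the 4 was among them. Ube3a was 26.5 points higher (adjusted p = 1.23e-10), Mcts2 27.8 points (adjusted p = 0.0170), Inpp5f 19.3 points (adjusted p = 7.34e-04) and Plagl1 18.6 points (adjusted p = 2.43e-04), all by Fisher's exact test over 9548 genes. The nearest genes read from both alleles on either side of Ube3a were higher too, though both lay outside the 2 Mb window, at 3.00 and 4.57 Mb. Herc2 had a share of 26.8% in XiΔXist and 59.8% in shSCR, and Klf13 36.0% and 58.7%. The median share of neighbours within 2 Mb differed by -0.19 points around Mcts2, 0 around Inpp5f and 0.13 around Plagl1. These medians cannot show a regional rise, since the surroundings were mixed or of one allele. In XiΔXist the median was already 99.5% around Mcts2 and 99.9% around Plagl1. Single neighbours read from both alleles in XiΔXist moved in either direction. Mapre1, near Mcts2, had a share of 71.7% of 9709 reads in XiΔXist and 93.3% of 504 in shSCR. Bag3, near Inpp5f, had 83.1% and 67.0%. The part of regional shifts in these changes was not tested. Levels of 11 of 24 genes were at least 2-fold higher in shSCR and of 5 (Impact, Peg12, Slc38a4, Snrpn and Ube3a) at least 2-fold lower, against 40.2% and 24.3% of the other genes, so the members stood in pools that differed in most genes. With size factors in place of library totals, 9 were higher and 8 lower. Peg3 had 40.9 CPM in shSCR against 0.141 CPM in the XiΔXist pool, Grb10 30.1 against 5.22 CPM and Peg13 16.7 against 0.988 CPM. The others of the 8 genes that were lower in XiΔXist than in WT did not follow Peg3, Grb10 and Peg13. Slc38a4 had 6.27 CPM in shSCR and 9.18 CPM in shYY1, against 21.5 CPM in XiΔXist. Asb4 and Ppp1r9a had no read in either hairpin pool, and Nnat had 0 and 1 read. Cdkn1c did not reach 10 reads in either hairpin pool. Mitochondrial reads made up 36.7% of shSCR and 39.5% of shYY1, against 20.2% of WT and 22.3% of XiΔXist, and with them left out of the totals 12 of the 24 genes were higher in shSCR and 4 lower. Their part in the differences of share was not tested. The 3 comparisons share pools and are not independent of each other.

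**Figure D3:**
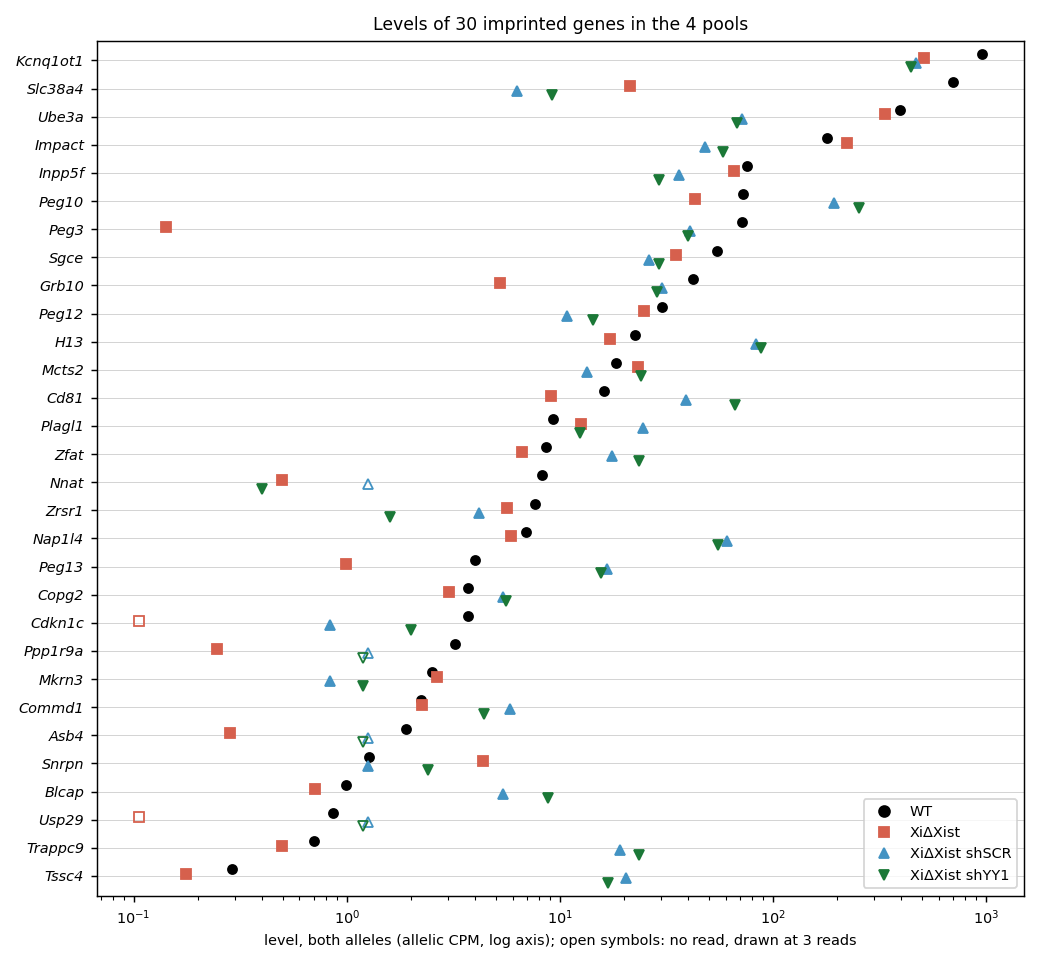
Level of the 30 imprinted genes in allelic CPM (x axis, log scale), 1 symbol a pool, with open symbols for genes without a read, drawn at 3 reads. Peg3 and Slc38a4 lie far lower in XiΔXist (0.141 and 21.5 CPM) than in WT (71.7 and 700.04 CPM), and the shSCR and shYY1 symbols of Peg3 lie next to each other, at 40.9 and 39.9 CPM.

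A list of 16 genes of imprint maintenance and DNA methylation, with Dnmt3a, Dnmt3b, the Tet genes and Yy1 among them, was measured in the same pools. Of these 16 genes, 15 had enough reads to compare XiΔXist with WT. None was 2-fold higher or lower on the scale of log2(CPM + 1), beside 3.07% and 6.03% of other autosomal genes. On the CPM scale Dnmt3b, with 41 reads in WT and 17 in XiΔXist, had a ratio of 0.356 (0.190 to 0.640). Uhrf1, which brings DNMT1 to newly copied DNA, had 269.5 and 304.9 CPM in WT and XiΔXist, and Dnmt1, the maintenance methyltransferase, had 40.8 and 36.3 CPM. Zfp445, a zinc finger gene that binds imprinting control regions, had 126.6 and 84.4 CPM, a ratio of 0.667 (0.632 to 0.704). Between shSCR and shYY1, 14 genes could be compared and Yy1 alone passed 2-fold, with a ratio of 0.371 (0.288 to 0.474). Between XiΔXist and shSCR, 7 of 14 were higher in shSCR and 1 (Smchd1, a chromatin protein of the Xi and of imprinted clusters) was lower, beside the 40.2% and 24.3% of other autosomal genes. Trim28, the corepressor that holds the zinc finger proteins to silencing complexes, had 43 reads in XiΔXist and 512 in shSCR, or 1.52 and 213.9 CPM. It was low in WT as well, at 2.06 CPM, and had 196.1 CPM in shYY1.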

How the data were processed

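RNA-seq libraries of MEFs (total RNA, KAPA RNA HyperPrep) were sequenced in 8 samples of 4 groups. The values are raw counts deposited by the authors, not normalized, of reads per Ensembl gene from the 129 or the CAST allele, in 8 tables of 1 column each. By the study's methods, the authors pooled the replicates of a group, aligned to a genome masked at strain differences with TopHat, removed reads of low mapping quality, split alleles with SNPsplit and counted over exons with featureCounts (version 1.6.3 in the submitters' processing notes; GRCm38/mm10). Use of strand and the annotation release are not given in the sources used here.

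The imprinted genes, their parental classes from textbook knowledge, and the lists and thresholds were chosen with earlier results of these data known. Every gene on the list was accounted for, and neighbours were named up to 3 a gene by most reads, or as the nearest gene read from both alleles. Symbols and positions came from GENCODE M21, which matched 45229 of 46078 IDs. The 849 others held at most 0.0925% of a pool's reads. They stayed in the totals and in no set. Neighbours excluded a list of other known imprinted genes, which did not hold Snhg14 and Gm38393 of the Prader-Willi cluster. Shares were given with Wilson 95% intervals and ratios of levels with exact binomial ones, and 3 counts set the limit of a zero. Fisher's exact tests used Benjamini-Hochberg adjustment over all genes with 10 reads in both pools. Totals were CPM with a pseudocount of 1 for log2 values. As columns hold no replicates, no model across samples was fitted. Depth ran from 2393545 to 28329701 reads. Transcripts of Snurf alone had a near-identical copy elsewhere (at least 50% of the length at 90% identity, blastn 2.17.0). Promoters were RefSeq windows (GRCm38.p6). Scripts were tested on simulated data. Python 3.11.15 with numpy 2.4.6, pandas 2.3.3, scipy 1.17.1 and matplotlib 3.10.9 was used. Alternatives were other read minimums, limits, windows, scalings and pseudocounts, a scaling of CAST reads, and genes that overlap no other gene.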

Additional observations from a re-analysis of the deposited data

How the results depend on the processing

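No paired analysis was possible because the deposited columns pool the replicates of each group, so that neither a replicate block nor leaving out a replicate could be run. Of 102 counts recomputed under the alternatives, 81 were within 1.5 times the reported count. With at least 20 reads, heterozygous surroundings were found for 4 imprinted genes in shSCR (8 reported) and no share changed between XiΔXist and WT (0, 1 reported). With at least 50 reads the numbers were 3 in shSCR, 3 in shYY1 (7 reported) and 0. In WT, with at least 50 reads for genes and neighbours alike, 6 genes were read from one allele (8 reported: Asb4 and Grb10 were lost). At limits of 5% and 95% there were 7 in WT, Asb4 being lost. At limits of 20% and 80% there were 10 in WT, with Ppp1r9a and Zrsr1 added, both on the CAST side. Ppp1r9a is of the maternally expressed class. With neighbours within 5 Mb, 11 genes in shYY1 had heterozygous surroundings, and within 1 Mb 3 genes in XiΔXist were read from one allele (5 reported: Mkrn3 and Peg12 were lost). A change of 3 points alone was passed by 8, 8 and 10 genes for XiΔXist against WT, shYY1 against shSCR and shSCR against XiΔXist (1, 0 and 4 reported), and an adjusted p alone by 3 in the first. With a pseudocount of 5 CPM, 0 genes were higher and 4 lower in XiΔXist than in WT (1 and 8 reported), and 3 were lower in shSCR than in XiΔXist (5 reported). Size factors gave 8 lower there, with a median log2 over autosomal genes of -0.05 in place of 0.41 (0.70 without mitochondrial reads), and for XiΔXist against WT they moved this median from -0.11 to 0.00. Over the 18 listed genes that overlap no other gene, 0 shares changed in the first and in the third comparison, 0 levels were higher and 5 lower in the first, and 4 were higher and 2 lower in the third (11 and 5 reported). Scaling the CAST reads moved 6 of 98 shares outside their own interval, by at most 4.81 points. The shallow hairpin pools cannot show small changes of share: the 26 reads of Peg12 in shSCR allow a 129 share of up to 11.5%.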

Other observations

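A neighbour of Peg10 that was not on the list, Slc25a13, a mitochondrial carrier gene, was also read from CAST, with 1 of 3760 reads from 129 in WT and 3 of 5846 in XiΔXist. It lies in the same stretch as Col1a2, where both alleles were read.

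In the Prader-Willi cluster, 2 unlisted transcripts next to Ube3a and Snrpn carried many reads. Gm38393, whose exons overlap Snrpn, had 0 of 512 reads from 129 in WT, 1 of 1503 in XiΔXist and 0 of 22 in shYY1. Snhg14, the long RNA antisense to Ube3a, had a 129 share of 26.3% (23.3% to 29.4%) of 799 reads in WT and 11.1% (9.57% to 12.8%) of 1424 reads in XiΔXist. In the hairpin pools it had 5 of 25 reads from 129 in shSCR and 9 of 21 in shYY1.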
